A study of Mus musculus with 9 samples.

Results

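The enzymes described here make L-serine, turn it into D-serine, or pass its carbon to folate, and their messenger RNA was measured in BV2 cells, an immortalised line of mouse microglia. The members were the 10 rows of the expression table named Phgdh, Psat1, Psph, Srr, Shmt1, Shmt2, Mthfd1, Mthfd1l, Mthfd2 and Aldh1l2, out of 40993 genes in the table, and the rule used names only. All 10 had a mean of at least 1 FPKM (fragments per kilobase of transcript, scaled by the number of mapped fragments, a level corrected for length and sequencing depth) and were among the 11161 genes that were tested. Of the members, 6 encode cytosolic enzymes and 4 encode mitochondrial enzymes.

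The RNA-seq series held 9 libraries. These were 3 from non-treated control cells, 3 from cells given MNPs@SiO2(RITC) at 0.01 µg/µl (10 µg/ml, the low dose) and 3 from cells given 0.1 µg/µl (100 µg/ml, the high dose), with 12 h of treatment. MNPs@SiO2(RITC) are magnetic nanoparticles with a cobalt ferrite core and a silica shell that carries the dye rhodamine B isothiocyanate. No group received silica particles without the magnetic core, and BV2 is a single line that carries introduced oncogenes, so it stands for microglia only within those limits. The labels do not say whether the libraries of a group came from separate cultures, so p-values measure the spread between these libraries, which may be technical.

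The deposited FPKM of a library summed to between 473547 and 522812, and the steps between low values put the depth at about 11800000 to 14800000 fragments. Of 10 markers of microglia and macrophages 8 had a mean of at least 1 FPKM. Cx3cr1 and P2ry12 did not, with means of 0.0368 and 0.0934 FPKM over the 9 libraries. The summed level of the 10 was 1234.9 to 1455 FPKM in control, 1233.5 to 1333 FPKM in low dose and 1155.8 to 1372 FPKM in high dose libraries. At the high dose all 8 markers that were tested had a log2 fold change under 0, with a median of -0.20. In 3 of the 8 all high dose values were under control (11.4% of all tested genes). None passed the test at an adjusted p of 0.05, and the part of the markers in the results of the enzymes was not tested. None of 4 astrocyte, 4 neuron, 3 oligodendrocyte or 4 fibroblast and endothelial markers reached a mean of 1 FPKM. The library of high dose replicate 1 differed most from the others of its group. Its median absolute log2 difference was 0.184 over the tested genes, against 0.0652 to 0.129 for the other 8 libraries. By root mean square the gap was smaller, at 0.424 against 0.316 to 0.393. Without it 1 of the 8 microglial markers, Fcer1g, was called at the high dose, and calls of the enzymes that change are given both ways.

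L-Serine is made from a glycolytic intermediate in the cytosol, by Phgdh, then Psat1, then Psph. Srr converts L-serine to D-serine, a co-agonist of NMDA receptors that glia and neurons can release. Serine also gives a carbon unit to tetrahydrofolate, by Shmt1 in the cytosol and by Shmt2 in mitochondria. In mitochondria that unit is oxidised by Mthfd2 and released as formate by Mthfd1l, and formate returns to the cytosol, where Mthfd1 attaches it to folate for the synthesis of purines and thymidylate. Aldh1l2 oxidises mitochondrial formyl-tetrahydrofolate to carbon dioxide and yields NADPH. Transcription factor ATF4 is known to drive many of these genes when amino acids are short or mitochondria are stressed.

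The stretches just upstream of 4 members are shown because the results contrast these genes: Mthfd2, Shmt2 and Psat1, whose 3 high dose values all lay under the control values, and Shmt1, whose 3 high dose values all lay above them. The sequences are from RefSeq on GRCm38.p6, whose promoter table held 9 of the 10 members, and each is the 250 bases that end just before the transcription start, read in the direction of the gene. They lie on the minus strand, at chr6:83317605-83317854 for Mthfd2, chr10:127522445-127522694 for Shmt2, chr19:15925060-15925309 for the first of 2 starts of Psat1, and chr11:60811266-60811515 for Shmt1. The stretches of Psat1 and Shmt1 lie inside the spans that the deposited table gives these genes. Capitals mark matches, on either strand, to CCAAT (the box of NF-Y, ATTGG on the other strand) and, in the line of Shmt2, to the palindromic element of NRF1, searched with the letters shown there (NRF1 is a factor that regulates many nuclear genes of mitochondrial proteins).
Mthfd2: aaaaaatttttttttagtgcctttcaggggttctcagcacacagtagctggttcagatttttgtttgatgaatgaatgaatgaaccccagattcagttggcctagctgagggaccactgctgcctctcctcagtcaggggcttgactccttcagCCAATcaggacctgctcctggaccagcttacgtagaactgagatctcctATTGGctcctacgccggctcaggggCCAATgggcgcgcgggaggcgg
Shmt2: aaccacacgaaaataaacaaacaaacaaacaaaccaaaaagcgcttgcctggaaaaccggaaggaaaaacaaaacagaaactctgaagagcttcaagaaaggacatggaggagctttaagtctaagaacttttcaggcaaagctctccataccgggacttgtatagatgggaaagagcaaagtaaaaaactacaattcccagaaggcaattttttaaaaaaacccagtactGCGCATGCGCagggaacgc
Psat1: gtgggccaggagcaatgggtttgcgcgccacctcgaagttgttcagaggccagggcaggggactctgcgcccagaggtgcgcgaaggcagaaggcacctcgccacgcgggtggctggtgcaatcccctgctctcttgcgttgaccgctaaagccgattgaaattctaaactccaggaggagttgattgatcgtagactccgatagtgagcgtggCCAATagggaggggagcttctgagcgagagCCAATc
Shmt1: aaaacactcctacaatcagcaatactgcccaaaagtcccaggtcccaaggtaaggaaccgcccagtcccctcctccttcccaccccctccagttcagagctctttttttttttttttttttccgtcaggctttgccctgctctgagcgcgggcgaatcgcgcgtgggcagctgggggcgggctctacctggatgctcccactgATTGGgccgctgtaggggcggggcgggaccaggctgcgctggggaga

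Mthfd2 had 3 CCAAT matches, at -96 to -92, -47 to -43 and -22 to -18 from its start, and Psat1 had 2, at -36 to -32 and -6 to -2. Shmt1 had 1, at -47 to -43. Shmt2 had none, and it was the only matched member with the NRF1 element, at -19 to -10. Over 32851 starts in the table, 33.8% held CCAAT in the same window and 0.782% held the NRF1 element. CCAAT stood upstream of 6 of the 9 matched members, among them Phgdh, Psph and Mthfd1. The composite element of ATF4 and C/EBP proteins, searched as TGATGNAAN, was found in 3.44% of windows and in none of the members' windows, and the E-box CACGTG was found in 6.02% and in no member. A match describes letters only, and binding was not measured.

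In control cells the members spanned about 2 orders of magnitude. Psat1 was highest at 351.6 ± 3.14 FPKM (SD, n = 3), followed by Shmt2 at 128.8 ± 1.04 FPKM. Mthfd2, at 90.7 ± 0.841 FPKM, and Phgdh, at 89.9 ± 0.854 FPKM, overlapped each other and came next. Mthfd1 (66.5 ± 2.70 FPKM) and Shmt1 (64.7 ± 1.10 FPKM) also overlapped, and Mthfd1l stood below them at 37.6 ± 1.29 FPKM. The remaining members were low, with Psph at 7.26 ± 0.493 FPKM, Srr at 3.53 ± 0.255 FPKM and Aldh1l2 at 2.82 ± 0.739 FPKM, of which the last pair overlapped. Thus the 3 steps of serine synthesis differed widely in RNA level, and the racemase that makes D-serine was among the lowest members.

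**Figure D1:**
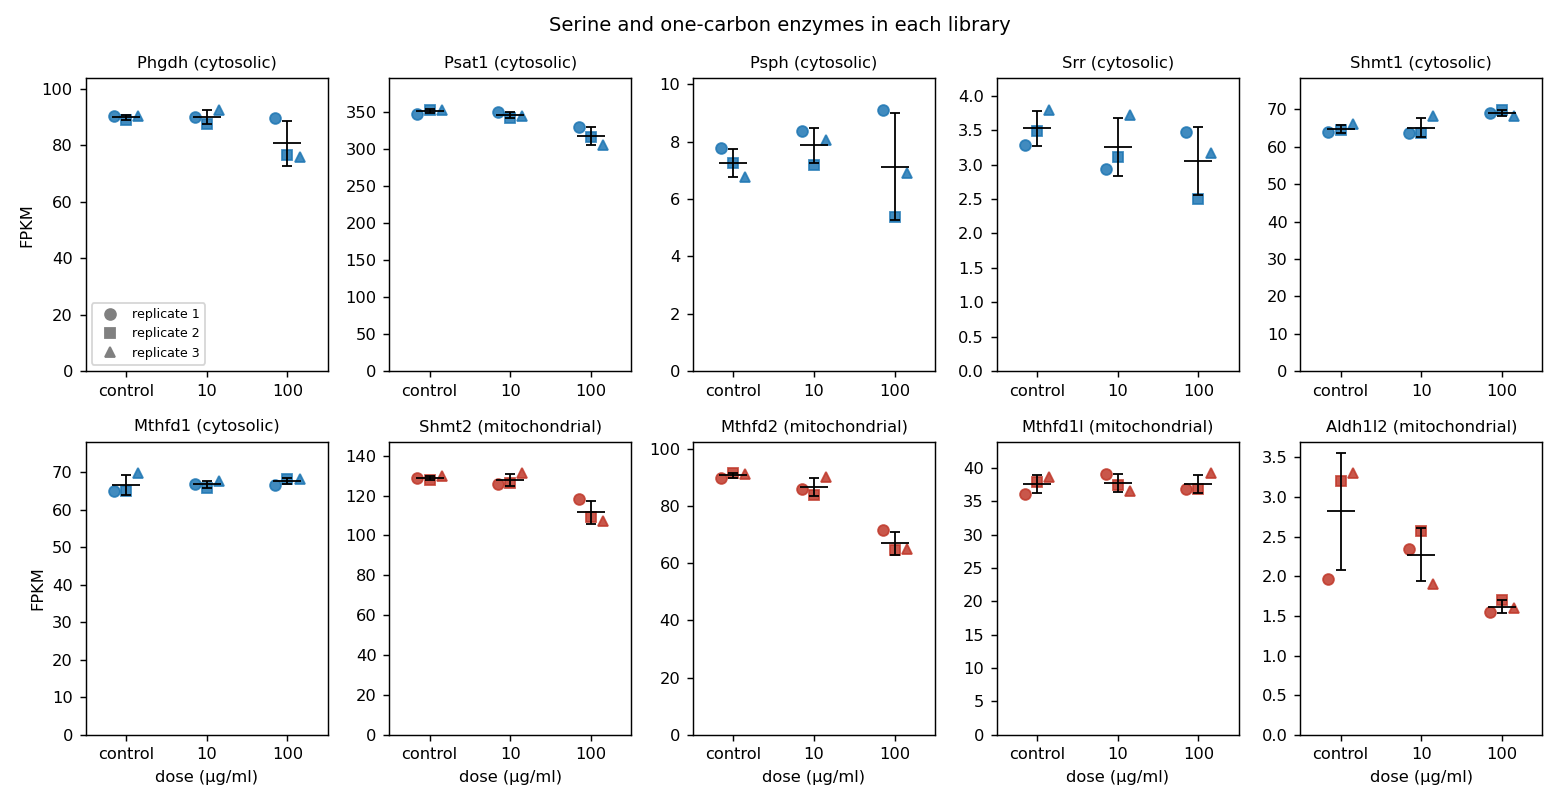
FPKM of the 10 enzymes in each library, by dose of MNPs@SiO2(RITC) in µg/ml, with cytosolic enzymes in blue and mitochondrial enzymes in red. Symbols are libraries by replicate number, bars are the mean and SD of 3, and each axis starts at 0. The 3 high dose libraries of Mthfd2 sit between 64.4 and 71.5 FPKM, all under the control range of 89.8 to 91.4, while those of Mthfd1l lie within 36.8 to 39.2 FPKM.

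At the high dose the mitochondrial dehydrogenase and cyclohydrolase Mthfd2 fell, and it was the only member whose change against control passed the test (1 of 10). Shmt2, Psat1 and Aldh1l2 also had all of their high dose values under all of their control values, without passing, and Shmt1 had all of its values above. The test was limma on log2(FPKM + 1) with Benjamini-Hochberg adjustment over all tested genes, called at an adjusted p of 0.05. At that threshold 2.11% of all tested genes were called, 1.41% as lower and 0.708% as higher. High dose libraries lay wholly under control for 4 of the 10 members and for 11.4% of all tested genes, and wholly above for 1 member (12.5% of all genes). An unadjusted p under 0.05 was reached by 5 members, and by 19.4% of all genes. FPKM is relative to all RNA in a library, so a lower share of cells that make a transcript and a lower amount per cell cannot be told apart.

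Phgdh (ENSMUSG00000053398, chromosome 3, 98313170 to 98339990, minus strand, GRCm38), the dehydrogenase of the first step, measured 90.3, 88.9 and 90.5 FPKM in control libraries. It measured 90.1, 87.4 and 92.6 FPKM at the low dose and 89.9, 76.6 and 75.8 FPKM at the high dose. High dose replicate 1 was at the control level and the other 2 high dose libraries were below every control and low dose library, so the groups overlapped. The log2 fold change at the high dose was -0.16 ± 0.07 (SE, limma adjusted p = 0.248). Without high dose replicate 1 it was -0.24, with an adjusted p of 0.0192.

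Psat1 (ENSMUSG00000024640, chromosome 19, 15904678 to 15947337, minus strand) encodes the aminotransferase of the next step. Its values were 348, 353 and 353 FPKM in control, 351, 343 and 345 FPKM in low dose, and 330.4, 317 and 305 FPKM in high dose libraries. All high dose values were under all control and all low dose values, yet the difference was small, at a mean of 90.4% of control. The log2 fold change was -0.15 ± 0.05 (limma adjusted p = 0.134), and without high dose replicate 1 it was -0.18 (adjusted p = 0.0391).

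Psph (ENSMUSG00000029446, chromosome 5, 129765558 to 129787252, minus strand), the phosphatase that releases L-serine, was the most variable of the 3 synthesis genes. Control libraries were at 7.77, 7.25 and 6.78 FPKM, low dose libraries at 8.38, 7.19 and 8.05 FPKM, and high dose libraries at 9.11, 5.39 and 6.90 FPKM. The highest and the lowest of the 9 values were both high dose libraries. The high dose log2 fold change was -0.05, with a 95% interval from -0.39 to 0.29 (limma adjusted p = 0.897). It was -0.22 without high dose replicate 1 and 0.12 without high dose replicate 2, neither of which passed the test.

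Srr (ENSMUSG00000001323, chromosome 11, 74906359 to 74925948, minus strand), the serine racemase, measured 3.29, 3.49 and 3.80 FPKM in control libraries. It measured 2.94, 3.10 and 3.73 FPKM at the low dose and 3.48, 2.51 and 3.17 FPKM at the high dose. The 3 groups overlapped, and no treated library was above the highest control library. The high dose log2 fold change was -0.17, with a 95% interval from -0.43 to 0.10 (limma adjusted p = 0.491). The gene overlaps Tsr1 on the opposite strand over 2984 bases, Tsr1 averaged 103 FPKM, and whether strand was used in counting is not given in the sources used here, so the level of Srr is uncertain.

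Shmt1 and Shmt2 carry out the same reaction, the transfer of a carbon from serine to tetrahydrofolate, in different compartments, and their high dose values lay on opposite sides of control. Shmt1 (ENSMUSG00000020534, chromosome 11, 60788104 to 60811718, minus strand), the cytosolic enzyme, measured 63.9, 64.4 and 66.0 FPKM in control, 63.7, 63.6 and 68.1 FPKM in low dose, and 68.9, 69.9 and 68.1 FPKM in high dose libraries. All high dose values were above control, and they met the low dose range at its upper end. The log2 fold change was 0.09 ± 0.05 (limma adjusted p = 0.331). Shmt1 overlaps Smcr8, at 38.5 FPKM, on the opposite strand over 184 bases.

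Shmt2 (ENSMUSG00000025403, chromosome 10, 127517123 to 127522444, minus strand), the mitochondrial enzyme, measured 128.8, 127.7 and 129.8 FPKM in control libraries. It measured 126.0, 126.4 and 131.1 FPKM at the low dose and 118.2, 109.4 and 107.5 FPKM at the high dose. No high dose value reached the lowest control or low dose value, and high dose replicate 1 was nearest to them. The log2 fold change was -0.20 ± 0.05 against control (limma adjusted p = 0.0723) and -0.19 ± 0.05 against the low dose (adjusted p = 0.127). Without high dose replicate 1 these were -0.25 (adjusted p = 0.0148) and -0.24 (adjusted p = 0.0254).

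Mthfd2 (ENSMUSG00000005667, chromosome 6, 83305691 to 83317606, minus strand) encodes the enzyme that oxidises the carbon unit made by Shmt2. Control libraries were at 89.8, 91.4 and 91.0 FPKM, low dose libraries at 86.0, 83.9 and 90.0 FPKM, and high dose libraries at 71.5, 64.4 and 64.9 FPKM. High dose values were far under both other ranges, which met each other. The high dose mean was 73.8% of control, a log2 fold change of -0.43 ± 0.05 with a 95% interval from -0.56 to -0.31 (limma adjusted p = 0.00962), and 3.12% of the tested genes had a lower one. Against the low dose the log2 fold change was -0.37 ± 0.05 (adjusted p = 0.0249).

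The call of Mthfd2 against control was lost when control replicate 2 was left out (adjusted p = 0.0561) and when the fit held only the 6 libraries compared (adjusted p = 0.0663), although the log2 fold change stayed between -0.48 and -0.41. Over all alternatives the adjusted p ran from 0.00464 to 0.0663. Against the low dose the call was lost when any 1 library other than high dose replicate 1 was left out, and with those 6 libraries alone (adjusted p = 0.126).

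Mthfd1l (ENSMUSG00000040675, chromosome 10, 3973118 to 4167081, plus strand), the mitochondrial formate-releasing enzyme, measured 36.2, 37.9 and 38.7 FPKM in control libraries. It measured 39.2, 37.5 and 36.5 FPKM at the low dose and 36.9, 36.8 and 39.2 FPKM at the high dose. The ranges lay on top of each other, and the high dose log2 fold change was 0.00 with a 95% interval from -0.12 to 0.12 (limma adjusted p = 0.999). That interval does not reach the change of Mthfd2, the neighbouring step.

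Mthfd1 (ENSMUSG00000021048, chromosome 12, 76255232 to 76319820, plus strand), which carries out the corresponding steps in the cytosol, measured 65.0, 64.9 and 69.6 FPKM in control, 66.8, 65.7 and 67.5 FPKM in low dose, and 66.6, 68.0 and 68.1 FPKM in high dose libraries. These ranges also overlapped. The high dose log2 fold change was 0.02, with a 95% interval from -0.08 to 0.13 (limma adjusted p = 0.817).

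Aldh1l2 (ENSMUSG00000020256, chromosome 10, 83487450 to 83534140, minus strand), the mitochondrial formyl-tetrahydrofolate dehydrogenase, was the lowest member. It measured 1.97, 3.20 and 3.30 FPKM in control, 2.35, 2.57 and 1.90 FPKM in low dose, and 1.55, 1.70 and 1.60 FPKM in high dose libraries. The high dose values were close together and under every other library, whereas control replicate 1 was within the low dose range. The log2 fold change was the most negative of the members, at -0.53 ± 0.16 (limma adjusted p = 0.117), and the pseudocount of 1 FPKM makes it smaller than a ratio of such low levels.

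**Figure D2:**
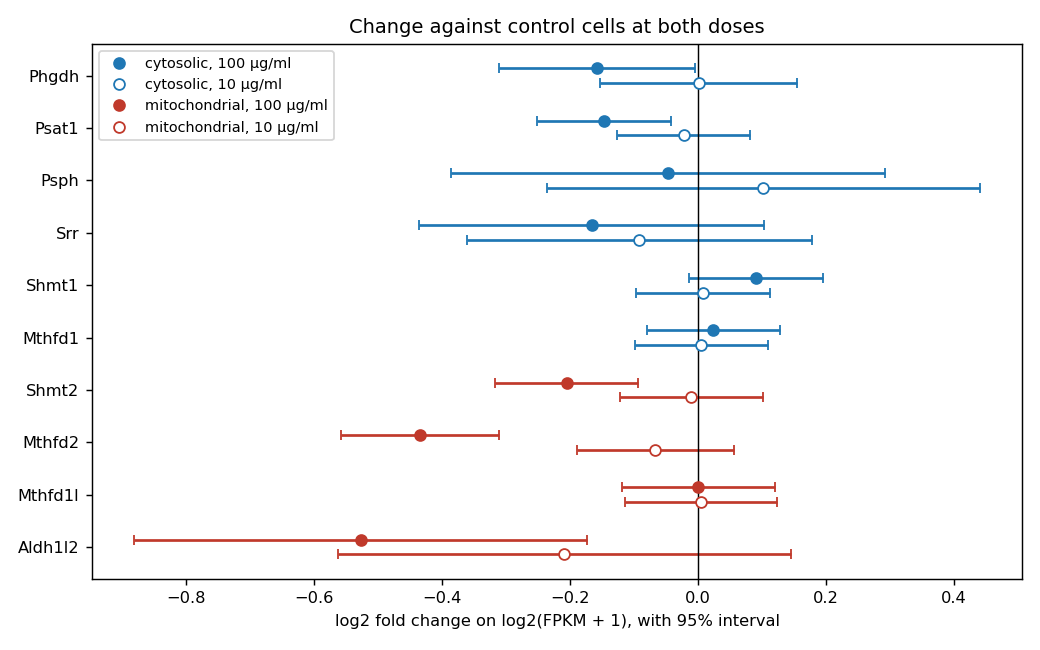
Log2 fold change against control on log2(FPKM + 1) for each enzyme, with 95% intervals from limma, filled for 100 and open for 10 µg/ml, cytosolic in blue and mitochondrial in red. At 100 µg/ml Mthfd2 lies at -0.43 and Shmt2 at -0.20 with intervals under 0, while Mthfd1l lies at 0.00, and at 10 µg/ml every interval includes 0.

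At the low dose no member was called, and no gene of the whole table was (0%). The log2 fold changes of the members ran from -0.21 for Aldh1l2 to 0.10 for Psph, each with a limma adjusted p of 1. No member had an unadjusted p under 0.05, against 3.28% of all tested genes, and none had low dose libraries wholly under control (4.61% of all genes) or wholly above (6.14%). Mthfd2 was at 95.5% of control, Shmt2 at 99.3%, Psat1 at 98.5% and Phgdh at 100.1%.

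Between the doses, Mthfd2 was the 1 member called, where 0.851% of all tested genes were called, 0.636% as lower and 0.215% as higher. High dose libraries lay wholly under low dose libraries for Mthfd2, Shmt2, Aldh1l2 and Psat1, thus for 4 of 10 members and 9.99% of all genes. None lay wholly above (9.37% of all genes). This comparison and the one against control share the high dose libraries. Without high dose replicate 1 the members called were Mthfd2, Phgdh, Psat1 and Shmt2 against control (4 of 10) and Mthfd2, Phgdh and Shmt2 against the low dose (3 of 10), while calls over the whole table went from 236 to 539 and from 95 to 191.

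Set by compartment, 3 of the 4 mitochondrial and 4 of the 6 cytosolic members had a high dose log2 fold change under 0. The median was -0.32 for the mitochondrial and -0.10 for the cytosolic members, against -0.00158 over all tested genes. The cytosolic median was -0.20 without high dose replicate 1 and -0.0232 without high dose replicate 2, and with only members above a mean of 5 FPKM, which leaves out Srr and Aldh1l2, the medians were -0.20 and -0.05. Within the compartments the members differed. Mthfd1l did not share the lower values of the other mitochondrial enzymes, and in the cytosol the synthesis genes Phgdh and Psat1 were on the lower side while the folate enzymes Shmt1 and Mthfd1 were not.

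Ratios within a library compare the compartments directly, since both enzymes come from the same RNA. The ratio of Shmt2 to Shmt1 was 2.02, 1.98 and 1.97 in control, 1.98, 1.99 and 1.93 in low dose, and 1.71, 1.57 and 1.58 in high dose libraries. That of Mthfd2 to Mthfd1 was 1.38, 1.41 and 1.31 in control, 1.29, 1.28 and 1.33 in low dose, and 1.07, 0.947 and 0.954 in high dose libraries. For both pairs every high dose ratio was under every control and low dose ratio, so that Mthfd2 went from exceeding Mthfd1 to about the same level.

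The mean log2 ratio of Shmt2 to Shmt1 differed by -0.29 ± 0.04 (SE) between high dose and control, and that of Mthfd2 to Mthfd1 by -0.46 ± 0.07. Each had a two-sided exact permutation p of 0.1, the smallest that 3 against 3 libraries allow, and 0.225 after Benjamini-Hochberg adjustment over 9 such tests, so this test cannot reach the threshold with 3 libraries a group. The ratio of Mthfd1l to Mthfd1 was 0.566 ± 0.0163 (SD, n = 3) in control and 0.556 ± 0.0178 in high dose libraries, overlapping, with an exact permutation p of 0.5. Between low dose and control the log2 ratios differed by -0.02, -0.07 and -0.00072 for the Shmt2, Mthfd2 and Mthfd1l pairs, and all 3 overlapped.

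**Figure D3:**
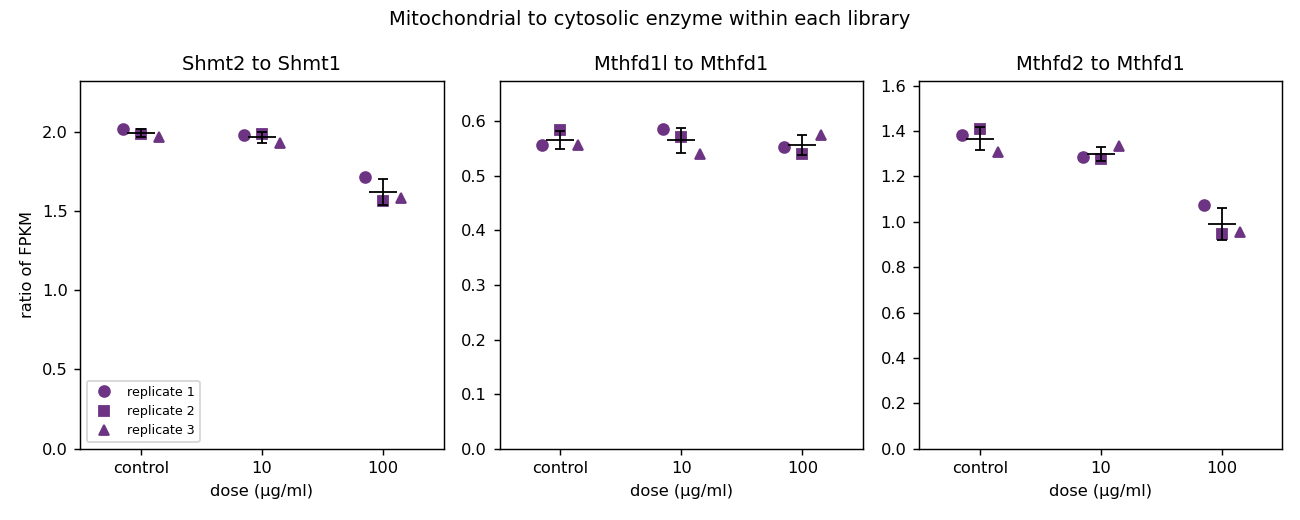
Ratio of mitochondrial to cytosolic FPKM within each library for 3 enzyme pairs, by dose in µg/ml, with the mean and SD of 3 libraries and axes from 0. The ratio of Shmt2 to Shmt1 averages 1.99 in control and 1.62 at 100 µg/ml and that of Mthfd2 to Mthfd1 1.37 and 0.991, while Mthfd1l to Mthfd1 stays between 0.541 and 0.586 in all 9 libraries.

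Over the 9 libraries, with each gene centred on its control mean, the profile of Phgdh was nearest to that of Shmt2 among the members, at a root mean square difference of 0.0431 on the log2 scale. Psat1 was also nearest to Shmt2, at 0.0421. The nearest member was in the same compartment for 5 of 10, a count that was not tested. Mthfd2 was nearest to Shmt2 too, though farther from it, at 0.137. Among all tested genes the nearest to Mthfd2 were Sash3, Atp5a1 and Tmbim4, at 0.0406 to 0.0495. For Phgdh they were Fam136a, Hnrnpdl and Etfa, at 0.0251 to 0.0312, and for Psat1 Smim13, G3bp2 and Mut, at 0.0273 to 0.0301. All of these were closer to Phgdh or Psat1 than Shmt2 was. They were picked from 11161 tested genes and Shmt2 from the members alone, so the larger pool favours that order. For Shmt2 the nearest were Smim13, Atxn10 and Zw10.

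The rest of the pathway was measured on lists of its genes. Of 20 genes of the folate cycle and folate transport 16 were tested, of 18 genes of serine and glycine transport, cleavage and use 12 were, and of 5 methionine cycle genes all were. None of these 33 genes was called in either direction in any of the 3 comparisons, with limma as described. Under 3 alternatives, a filter at a mean of 5 FPKM and either of 2 other scalings, 1 of them, Fpgs, was called as higher at the high dose against control. An unadjusted p under 0.05 was reached by 9 of the 33 at the high dose against control (19.4% of all genes), 0 at the low dose (3.28%) and 6 between the doses (14.3%). Their median log2 fold changes at the high dose were 0.00, 0.11 and -0.09 for the 3 lists.

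Mthfd2l, which encodes a mitochondrial isoenzyme of Mthfd2, was at 3.90 ± 0.123 FPKM in control and 3.17 ± 0.0714 FPKM in high dose libraries, far below Mthfd2, with a log2 fold change of -0.23 (limma adjusted p = 0.154). Slc25a32, the mitochondrial folate carrier, was at 21.4 ± 0.476 and 24.5 ± 0.802 FPKM (0.19, adjusted p = 0.0933), and Sfxn1, a mitochondrial serine transporter, was at 100.4 ± 2.47 and 108.4 ± 1.88 FPKM (0.11, adjusted p = 0.209). In both carriers every high dose value was above every control value (12.5% of all tested genes). In Mthfd2l every high dose value was under every control value (11.4%). None of these differences passed the test. Of the 33 tested pathway genes, 5 lay wholly above control and 7 wholly under. The other transporters on the list of serine and glycine genes overlapped control, Sfxn3 with a log2 fold change of -0.10 (adjusted p = 0.472) and Slc25a38 with 0.20 (adjusted p = 0.348).

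Several partners of the members were nearly undetected. Aldh1l1, the cytosolic counterpart of Aldh1l2, was listed at 0 in 8 of 9 libraries. Gldc, the decarboxylase of the glycine cleavage system, was at 0.164 to 0.334 FPKM. Dao, which breaks down D-serine, was at 0 to 0.0492 FPKM, and Cbs, which draws serine into cysteine synthesis, was listed at 0 in 8 of 9 libraries. High dose replicate 1 held Cbs at 0.0235 FPKM. The paper reports a significant increase of Cbs/Cbsl at the high dose by RT-qPCR. Its supplementary profile of the transcriptome also lists a higher signal of this gene at both doses than in control. The deposited FPKM of Cbs was 0 in every control and low dose library, so it gives no fold change to set against either report.

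Atf4 itself measured 200.8, 196.0 and 192.3 FPKM in control, 194.0, 183.7 and 195.4 FPKM in low dose, and 216.4, 166.7 and 170.3 FPKM in high dose libraries. High dose replicate 1 was the highest of the 9 and the other 2 high dose libraries were the lowest, so the groups overlapped, with a log2 fold change of -0.10 (limma adjusted p = 0.601). High dose replicate 1 was also above the other 2 high dose libraries in Phgdh, Psat1, Psph, Srr, Shmt2 and Mthfd2. It was not in Shmt1, Mthfd1, Mthfd1l or Aldh1l2. A link of this order to Atf4 was not tested.

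Of 12 genes on the list of ATF4 and its known targets outside serine metabolism 11 were tested. At the high dose 3 were called as lower and none as higher (1.41% and 0.708% of all tested genes). These were Pck2, the mitochondrial phosphoenolpyruvate carboxykinase, with a log2 fold change of -0.73 ± 0.07 (adjusted p = 0.00331), Ddit4, an inhibitor of mTORC1, with -0.91 ± 0.13 (adjusted p = 0.0132), and Sesn2, a leucine-responsive inhibitor of mTORC1, with -0.62 ± 0.09 (adjusted p = 0.0142). The list's median was -0.35 and 7 of the 11 genes had all high dose values under control (11.4% of all tested genes). The log2 fold change was under 0 for 10 of the 11. Cebpb was on the upper side, at 0.38 (limma adjusted p = 0.296). The same 3 genes were called against the low dose, and none at the low dose against control. Without high dose replicate 1, 7 of the 11 were called as lower against control, Atf4 among them, where 348 of 11161 tested genes were, and 4 against the low dose, Nupr1 added, where 149 were.

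With only the 6 libraries compared 2 of these genes were called against control, Ddit4 and Pck2, and 0 against the low dose. Without low dose replicate 1 the count against the low dose was also 0. The call of Pck2 against control held in all 18 alternatives, that of Ddit4 in 15 and that of Sesn2 in 14. Against the low dose the calls held in 16, 13 and 12 of the 18.

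**Figure D4:**
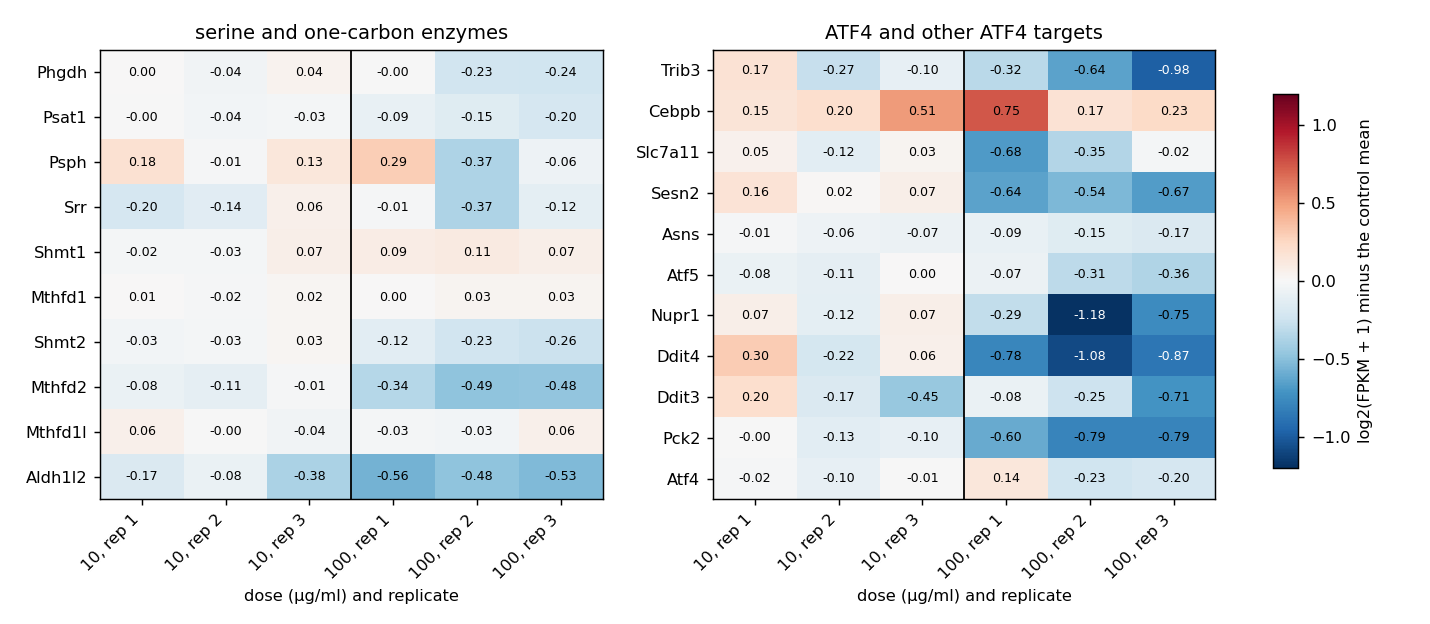
Difference of log2(FPKM + 1) from the control mean in each treated library (columns, by dose in µg/ml and replicate) for the 10 enzymes and for 11 tested genes of the ATF4 list (rows), blue for lower and red for higher. In the 100 µg/ml columns Mthfd2 reads -0.34, -0.49 and -0.48 and Phgdh 0.00, -0.23 and -0.24, and Atf4 reads 0.14 in replicate 1 and -0.23 and -0.20 in the others.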

How the data were processed

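The series measured BV2 RNA in 9 libraries, which were grouped by the treatment named in the labels. The paper names a kit labelled as stranded for RNA extraction, followed by oligo(dT) enrichment. For the adapters it names another kit, without that label. The authors filtered reads for quality, aligned them with TopHat and ran Cufflinks 2.1.1 against Ensembl release 77, with multi-read and fragment-bias correction, to obtain the FPKM that was deposited. Because of that correction the values are not counts, and count tests were not used. Depth was inferred from the spacing of small FPKM in genes with 1 transcript and is approximate. At the depth chosen, 74.4 to 81.0% of these values in a library lay within 0.25 of a whole fragment. The depth was chosen to bring values near whole fragments, so this share is no separate check of it.

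Tests used log2(FPKM + 1) of genes whose mean over the libraries was 1 FPKM or more, and the 3 groups were fitted together with limma 3.58.1 in R 4.3.3 (eBayes with trend, Benjamini-Hochberg adjustment over 11161 genes). The fit was tested on simulated data with shifts larger than any change of a member in the main fit. That test does not cover changes as small as theirs. Fold changes are on that scale and understate changes of low genes. Ratios within libraries were compared with exact permutation tests in scipy 1.17.1. Tables were made in Python 3.11.15 using numpy 2.4.6 and pandas 2.3.3. Promoter sequences were matched by symbol in RefSeq.

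Alternatives were other pseudocounts, filters, scalings and fits, a replicate block, and each library left out. The text names the 10 members, listed pathway genes that were called, a few set partners of the members, and the 3 genes nearest to each of 4 members. A few other listed genes and markers are named with their values. The members, lists, motifs and comparisons were chosen with earlier results of these data known. No library pair held identical values, and no value column was left out.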

Additional observations from a re-analysis of the deposited data

Results flagged for a closer look

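Mthfd2 was singled out because its effect at the high dose differed from its effect at the low dose when that difference itself was tested. Both effects are taken against the same control libraries, so the difference equals the high dose against the low dose, a log2 value of -0.37 ± 0.05 (limma adjusted p = 0.0249), with all 3 high dose libraries under all 3 low dose libraries. The log2 fold change was -0.43 at the high and -0.07 at the low dose. The adjusted p of this difference ran from 0.00895 to 0.126 over the alternatives.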

How the results depend on the processing

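Each group holds 3 libraries. The high dose log2 fold changes of Psph, Srr and Aldh1l2, the lowest members, had SEs of 0.149, 0.119 and 0.156, so small differences in them could be missed. Whether their level or the depth sets this spread was not tested. With 3 groups in the fit, spread is shared among them. Scalings moved the median of all genes by less than 0.1 on the log2 scale. Leaving out 1 library at a time, the members called ran from 0 to 4 at the high dose against control, 0 without control replicate 2 and 4 without high dose replicate 1, and from 0 to 3 against the low dose. With only the 6 libraries compared, 0 members were called in both, and calls over the whole table went from 236 to 22 and from 95 to 6. They were 200 and 78 with no filter on low values, 31 to 539 and 8 to 191 with 1 library left out, and 0 to 4 at the low dose. Fewer residual degrees of freedom go with the fits on fewer libraries.

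The replicate block, which treats equal replicate numbers as pairs, left 1 member called against control (Mthfd2, limma adjusted p = 0.034) and 0 against the low dose (Mthfd2, adjusted p = 0.0744), with 106 and 13 calls over the whole table. The deviations of libraries with the same number correlated at -0.088 to 0.152. Such correlations cannot show whether these libraries shared a batch, which the labels do not state.

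Signs turned only for differences that were not called. At the low dose, log2 fold changes turned for Phgdh (-0.00165, median-of-ratios), Psat1 (0.0400) and Shmt2 (0.0179, both quantile normalization), and with 1 library left out for Phgdh (-0.0189 to 0.0224), Shmt1 (-0.0245 to 0.0243), Mthfd1 (-0.0120 to 0.0383), Mthfd1l (-0.0222 to 0.0273) and the cytosolic median (-0.0192 to 0.0189). At the high dose they turned for Mthfd1l (-0.00167 with median-of-ratios, -0.0287 to 0.0210 with 1 library left out) and Psph (-0.22 to 0.12). Between the doses they turned, with 1 library left out, for Psph (-0.32 to 0.0131), Srr (-0.15 to 0.0258), Mthfd1l (-0.0332 to 0.0226) and the cytosolic median (-0.15 to 0.0136). The log2 ratio of Mthfd1l to Mthfd1 ran from -0.0258 to 0.0306 at the low dose and from -0.0542 to 0.00213 between the doses. The cause was not tested.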

Other observations

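Fpgs, which adds glutamates to folate and so retains it in cells, was picked after its values were seen. It measured 24.8, 28.0 and 27.8 FPKM in control, 28.3, 28.1 and 29.8 FPKM in low dose, and 37.0, 32.0 and 33.3 FPKM in high dose libraries. The low dose values were all above control and the high dose values all above the low dose. The high dose log2 fold change was 0.33 ± 0.07 and did not pass the test (limma adjusted p = 0.0526). It passed in 3 of 18 alternatives, the filter at a mean of 5 FPKM, quantile normalization and median-of-ratios rescaling, and the adjusted p ran from 0.0447 to 0.173 over all of them. The low dose log2 fold change was 0.10 (adjusted p = 1). Of the 16 tested genes of the folate list, 8 had a high dose log2 fold change under 0. All high dose values were above control for 3 of the 16, Fpgs among them (12.5% of all tested genes). They were all under control for 4 (11.4%).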
